A study of Mus musculus with 48 samples.

Results

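Mitochondrial ribosomal protein genes are described here in RNA captured from the brain targets of retinal ganglion cell (RGC) axons, and in RNA of eye cells. The genes were chosen by name, as every gene whose mouse symbol begins with Mrpl or Mrps followed by a number and at most 1 letter from a to c. That rule gave 78 of the 54331 genes in the deposited tables, and it used no measured value. Mitochondria have their own ribosome, whose RNA parts come from mitochondrial DNA. Its proteins are encoded in the nucleus, made on cytosolic ribosomes and imported. This mitoribosome makes only the few respiratory chain proteins that mitochondrial DNA encodes, and RGC axons, which lie far from the cell body, carry many mitochondria. Of the 78 genes, 51 encode proteins of the large subunit and 26 encode proteins of the small subunit. The remaining gene, Mrps36, has an Mrps name, but its product belongs to the 2-oxoglutarate dehydrogenase complex. Mrps18a and Mrps30 are counted with the large subunit, where their proteins sit in the mammalian mitoribosome. By descent, 46 have a bacterial homologue and 31 are specific to mitochondria.

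The series holds 48 mouse libraries in 15 groups. EU libraries hold RNA labelled with ethynyl uridine, injected into the vitreous of the eye, and then captured from the target of the axons. TRAP (translating ribosome affinity purification) libraries hold RNA pulled down with tagged ribosomes from the same targets. The superior colliculus (SC) groups with these captures were TRAP with the fmr1ko label at P14 (n = 3), EU with the fmr1ko label at P14 (n = 3), EU from axotomized sarm1ko mice at P14 with a 7-day chase (n = 3), wild-type TRAP at P14 (n = 5) and P10 (n = 3), and wild-type EU at P10 (n = 3), P10 with a 4-day chase (n = 3), P14 (n = 5) and 8 weeks (n = 3). The lateral geniculate nucleus (LGN) gave wild-type P14 TRAP (n = 3) and EU (n = 2) libraries. Eye cells at P14 were sorted by FACS with the fmr1ko label (n = 3) or from wild type (n = 3), or were immunopanned from wild-type mice with EU capture (n = 3) or without it (n = 3). All groups other than the sarm1ko group are labelled naïve for axotomy. The sources used here do not give the driver of the TRAP tag or the way in which cells were sorted, and the EU protocol pools SC from 3 animals. Whether replicate libraries came from separate animals is not stated in the labels, and p-values therefore reflect only library-to-library spread. Library totals ran from 2558141 to 48263706 estimated counts. Wild-type P14 SC means replicates 3 to 5 unless stated, since these share their series of title codes with the other SC groups.

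Some libraries stood apart from their labels. Replicate 2 of the fmr1ko TRAP group had 60300 TPM (levels scaled for depth and transcript length) summed over 7 rod photoreceptor genes, against 50.2 and 53.6 TPM in its replicates 1 and 3. The same library had 5.15 TPM over 9 RGC genes, against 1550 and 1490 TPM, so its results are given with and without it. Sorted eye cells had 50800 to 59600 TPM of the rod genes with the fmr1ko label and 53000 to 92900 TPM in wild type, with 33.6 to 101 and 15.6 to 42.1 TPM of the RGC genes. They are called eye cells here. Sarm1 had 2.5, 7.63 and 0.795 TPM in the sarm1ko libraries, against 25.4, 39.6 and 16.4 TPM in wild-type EU libraries. Mitochondrially encoded RNA took 23.4%, 13.1% and 31.4% of the counts in those sarm1ko libraries, against 1.04%, 0.407% and 1.76% in wild type. TPM as deposited falls for all nuclear genes as that share rises, so the Sarm1 values are not on an equal scale. Fmr1 had 0.0584, 6.01 and 3.62 TPM in the TRAP libraries labelled fmr1ko, against 2.16, 1.27 and 5.37 TPM in wild type, and 12.2, 2.27 and 15.4 TPM in EU libraries with the label, against 0.843, 1.18 and 0.424 TPM in wild type. In sorted eye cells Fmr1 had 26.6, 2.58 and 2.96 TPM with the label, against 21.2, 13 and 5.48 TPM in wild type. The fmr1ko libraries are described by their label. In 1 immunopanned library without EU capture (replicate 1), 32 of the 78 genes were at 0.

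Levels differed widely among the 78 genes. The highest medians over the 48 libraries, on the TPM scale, were those of Mrps12 (198.4 TPM), which encodes a protein at the decoding centre of the small subunit, Mrpl34 (194.1 TPM), Mrpl30 (184.7 TPM), Mrpl54 (177.5 TPM) and Mrpl28 (175.9 TPM). The lowest were those of Mrpl1 (2.07 TPM), whose protein forms a mobile stalk on the large subunit, Mrps30 (2.52 TPM), Mrpl50 (6.31 TPM), Mrps31 (7.49 TPM) and Mrpl35 (8.64 TPM). Mrps12 had 322, 385, 436, 451 and 573 TPM in SC TRAP at P14, against 239, 284, 254, 179 and 126 TPM in SC EU at P14. All 5 TRAP values lay above all 5 EU values. Mrpl1 had 1.62, 1.19, 3.65, 0.996 and 3.51 TPM in TRAP, against 9.01, 1.96, 0.267, 0.222 and 1 TPM in EU, and these values overlapped. Of the 78 genes, 17 share at least 100 bases of coding sequence at 95% identity or more with another gene, mostly pseudogenes, and 28 overlap an exon on the opposite strand. The Nextera XT kit named in the labels does not mark strand, so reads of overlapping genes cannot be told apart and the levels of these genes are uncertain. Among the genes named here, shared sequence concerns Mrpl27, Mrpl32, Mrpl41, Mrpl42, Mrps18b, Mrps26, Mrps33 and Mrps36. Opposite-strand exons concern Mrpl12, Mrpl13, Mrpl27, Mrpl36, Mrpl49, Mrpl53, Mrps18b, Mrps25, Mrps26, Mrps27, Mrps30 and Mrps34.

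The summed TPM of the 78 genes was 8675 to 11930 in P14 SC TRAP libraries and 4553 to 8833 in P14 SC EU libraries. The LGN gave 8554 to 11420 in TRAP and 3939 to 6142 in EU. At P10 the sums were 12070 to 12720 in SC TRAP and 6368 to 7748 in SC EU, with no overlap. The sarm1ko EU libraries had 733.6, 1203 and 3336, and single libraries of other SC EU groups were also low, with 1240 in replicate 2 at 8 weeks and 2206 in replicate 2 with the fmr1ko label. Mitochondrially encoded RNA and a gene annotated as ribosomal RNA, CT010467.1, took 13.1% to 31.4% and 27.4% to 48.5% of the counts in the sarm1ko libraries. The same shares were 33.8% and 23.6% in replicate 2 at 8 weeks. In EU replicate 2 with the fmr1ko label they were 40% and 0.0764%. Rescaled to the TPM of nuclear coding genes, which leaves out mitochondrially encoded RNA and CT010467.1, the sums were 5623 to 7281 in sarm1ko libraries and 7267 to 8538 in the 3 wild-type EU libraries. The order of the 78 genes by mean TPM in SC TRAP at P14 had a Spearman correlation of 0.939 with SC TRAP at P10, 0.92 with LGN TRAP, 0.822 with SC EU at P14, 0.713 with FACS-sorted wild-type eye cells, 0.667 with immunopanned EU cells and 0.394 with immunopanned cells without EU capture. In that last group replicate 1 had 32 of the 78 genes at 0, and lens crystallins took 30.2% and 33% of the counts of replicates 2 and 3. These are descriptions across 78 genes, which share transcript length and their libraries and are not independent.

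**Figure D1:**
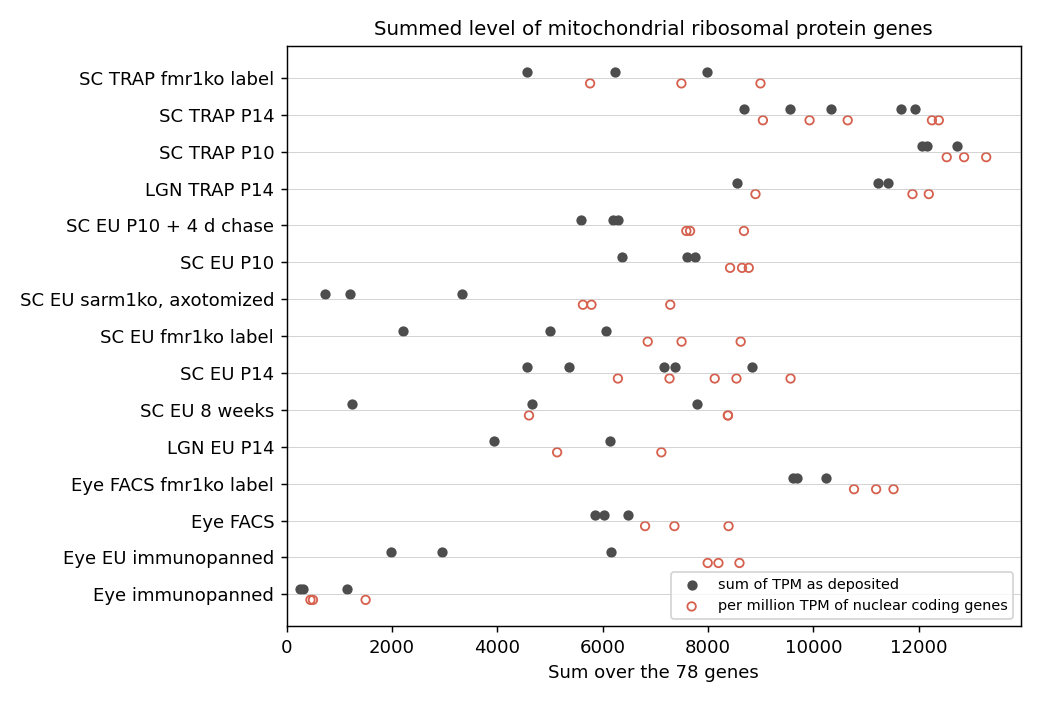
Sum over the 78 mitochondrial ribosomal protein genes in each library, by group. Filled points are sums of TPM as deposited and open points are sums after rescaling to nuclear coding genes. The P10 TRAP libraries lie furthest right on both scales, and the sarm1ko libraries move from 733.6 to 3336 on the first scale to 5623 to 7281 on the second.

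The TRAP and EU libraries of one target compare ribosome-bound RNA with captured labelled RNA. At P14 in SC, 10 of the 78 genes were higher in TRAP than in EU and 0 were lower. Among all 16277 tested genes 5.73% were higher and 8.64% lower, against 12.8% and 0% of the 78. The median log2 fold change was 0.54 for the 78 genes and −0.01 for all tested genes. At P10, 22 of the 78 genes (28.2%) were higher in TRAP than in EU and 1 (1.28%) was lower, against 6.38% and 11.1% of all 15733 genes. The medians at P10 were 0.78 and −0.08. On TPM of nuclear coding genes (limma), where the median of all genes at P10 was −0.44, 12 were higher and 2 lower, and the median of the 78 was 0.27. The share of all genes called in that limma fit is not given here, so these counts cannot be set against it. Calls are from the quasi-likelihood F test of edgeR, two-sided, at an adjusted p under 0.05 over all tested genes, and all 78 genes passed the filter on low counts in every comparison. In that test, 0 of the 78 genes and 0% of all genes were called for a different TRAP effect at P14 and P10. At an unadjusted p under 0.05, 4 of the 78 were larger at P14 and 7 smaller. DESeq2 called 1 gene in that comparison and limma 0.

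**Figure D2:**
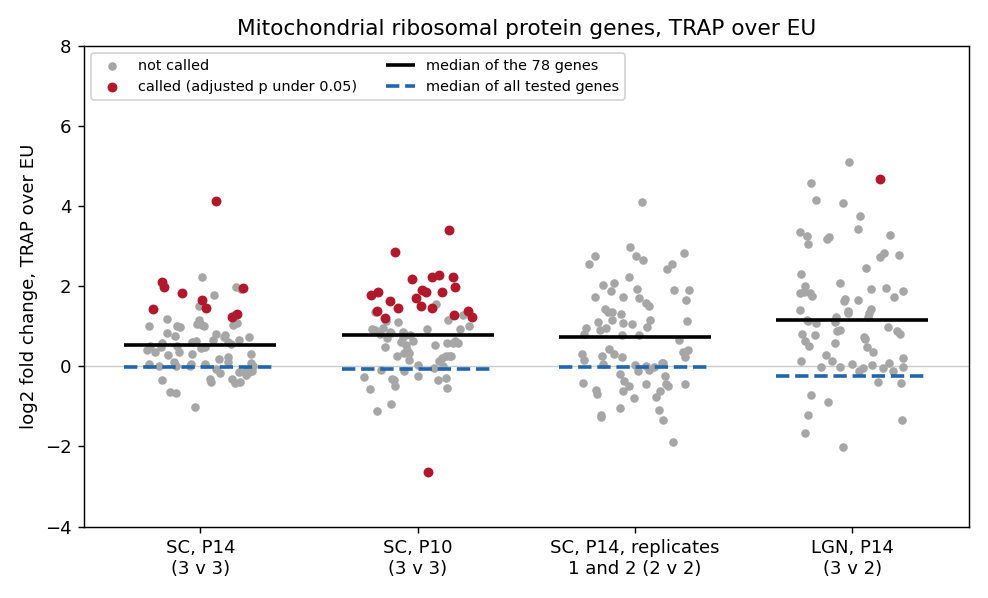
Log2 fold change of TRAP over EU for each of the 78 genes (points) in 4 comparisons that share no library, with the number of TRAP and EU libraries in brackets. Solid lines are medians of the 78 genes (0.54, 0.78, 0.73 and 1.15) and dashed lines medians of all tested genes, and the solid line lies above the dashed line in each.

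A set of 7 genes was higher in TRAP than in EU at both ages: Mrpl17, Mrpl20, Mrpl39 and Mrpl40 of the large subunit and Mrps12, Mrps33 and Mrps35 of the small subunit. The direction held under each scaling tried apart from Mrps35 at P10, which was at −0.04 on TPM of nuclear coding genes. They make up 70% of the genes called at P14 and 31.8% of those called higher at P10. The share of all tested genes called higher at both ages is not given here. Whether such an overlap is particular to this family was therefore not tested. Mrpl20, at chromosome 4, 155802878 to 155809975, encodes an RNA-binding protein of the large subunit with a bacterial homologue. It had 219, 133 and 112 TMM-normalised CPM (counts scaled for depth) in P14 TRAP, against 61.6, 44.2 and 24.7 CPM in P14 EU. At P10 it had 183, 387 and 391 CPM in TRAP, against 83.8, 57.2 and 56.2 CPM in EU. At either age every TRAP library lay above every EU library. The log2 fold changes of Mrpl20 were 1.83 ± 0.43 (SE, edgeR adjusted p = 0.020) at P14 and 2.29 ± 0.41 (edgeR adjusted p = 0.0065) at P10.

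Mrpl17, at chromosome 7, 105803206 to 105811099, encodes another large subunit protein with a bacterial homologue. It had 140, 102 and 120 CPM in P14 TRAP, against 45.2, 58.3 and 28.1 CPM in P14 EU (log2 fold change 1.46 ± 0.37, edgeR adjusted p = 0.027). Mrps12, at chromosome 7, 28739641 to 28741820, had 144, 150 and 139 CPM in P14 TRAP, against 78.6, 57.5 and 47.7 CPM in P14 EU (log2 fold change 1.24 ± 0.33, edgeR adjusted p = 0.032). For both genes the 2 captures did not overlap at P14. They did not overlap at P10 either, where Mrpl17 had 134, 191 and 445 CPM in TRAP, against 65.2, 45.1 and 54.5 CPM in EU. Mrps12 had 210, 154 and 315 CPM in P10 TRAP, against 92.6, 74.3 and 81 CPM in P10 EU.

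The other genes of the set encode proteins that bacteria lack. Mrps35, at chromosome 6, 147042764 to 147073991, had 65.1, 59.8 and 61.2 CPM in P14 TRAP, against 18.2, 9.53 and 20.3 CPM in EU (log2 fold change 1.95 ± 0.41, edgeR adjusted p = 0.014). Mrps33, at chromosome 6, 39801804 to 39810988, had 97.6, 42.1 and 47.5 CPM in P14 TRAP, against 15.4, 13.1 and 15.1 CPM in P14 EU (log2 fold change 2.10 ± 0.44, edgeR adjusted p = 0.014). Neither gene overlapped between captures at either age. Mrpl39, at chromosome 16, 84717576 to 84735742, averaged 29.9 ± 5.81 CPM in P14 TRAP and 7.58 ± 4.31 CPM in P14 EU (SD, n = 3 each). Mrpl40, at chromosome 16, 18872018 to 18876862, had 61.2, 65.9 and 46.7 CPM in P14 TRAP, against 31.4, 9.9 and 13.9 CPM in P14 EU. Mrpl39 and Mrpl40 also kept TRAP above EU in each library at P10, where their log2 fold changes were 1.91 ± 0.51 and 1.23 ± 0.33.

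**Figure D3:**
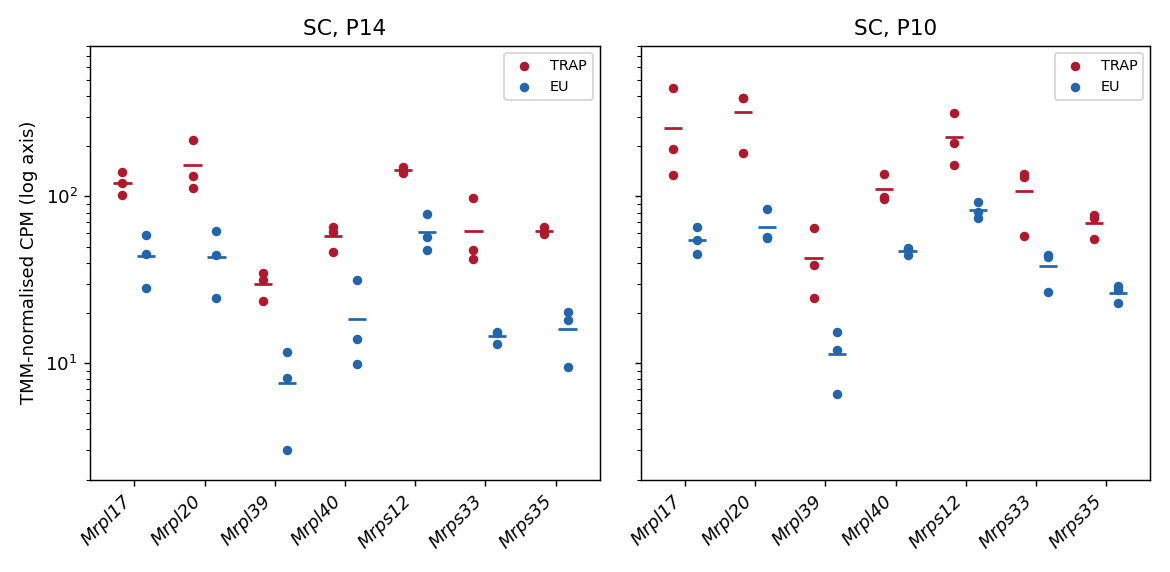
TMM-normalised CPM of the 7 genes called higher in TRAP at P14 and at P10, in each SC library (points), with group means (lines), on a log axis. TRAP lies left of EU for each gene, and for each gene every TRAP point lies above every EU point of the same age.

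Promoters of 69 of the 78 genes were matched in the RefSeq promoter table on GRCm38.p6. Shown here, because these genes were called at both ages, are the 150 bases before the RefSeq start of 6 of the 7, read on the strand of the gene, with the letters of 1 motif in capitals.
Mrpl17, chr7:105811088-105811237, minus strand: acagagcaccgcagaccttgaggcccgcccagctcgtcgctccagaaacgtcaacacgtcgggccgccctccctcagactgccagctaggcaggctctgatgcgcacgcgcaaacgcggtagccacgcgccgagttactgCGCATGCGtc
Mrpl39, chr16:84735245-84735394, minus strand: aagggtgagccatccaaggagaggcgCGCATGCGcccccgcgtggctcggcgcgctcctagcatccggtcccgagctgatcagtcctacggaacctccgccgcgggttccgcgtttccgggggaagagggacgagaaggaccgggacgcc
Mrpl20, chr4:155802728-155802877, plus strand: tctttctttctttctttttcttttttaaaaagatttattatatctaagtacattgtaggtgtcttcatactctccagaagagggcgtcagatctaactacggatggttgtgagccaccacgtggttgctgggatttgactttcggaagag
Mrpl40, chr16:18876638-18876787, minus strand: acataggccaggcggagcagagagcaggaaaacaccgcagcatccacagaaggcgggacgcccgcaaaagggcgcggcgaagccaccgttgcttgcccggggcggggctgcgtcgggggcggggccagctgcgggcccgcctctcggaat
Mrps12, chr7:28741822-28741971, minus strand: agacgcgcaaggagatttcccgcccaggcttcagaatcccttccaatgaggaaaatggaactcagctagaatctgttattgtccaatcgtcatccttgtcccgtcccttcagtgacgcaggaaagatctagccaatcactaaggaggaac
Mrps33, chr6:39810937-39811086, minus strand: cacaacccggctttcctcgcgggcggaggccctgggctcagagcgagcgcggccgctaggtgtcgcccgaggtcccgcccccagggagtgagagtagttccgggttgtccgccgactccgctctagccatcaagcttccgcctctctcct
The gene positions given above are from GENCODE, whose starts differ from those of RefSeq, so that the windows of Mrpl39 and Mrpl40 lie within the GENCODE genes and those of Mrpl17 and Mrps33 overlap them in part. The capitals mark the core of the NRF1 motif, GCATGCG, and its overlapping reverse complement, which Mrpl17 and Mrpl39 hold within these bases. NRF1 is a transcription factor known for its role at nuclear genes of mitochondrial proteins. Both strands were searched, over 250 bases before the start. The core was in 10.7% of the 75 member windows and in 3.02% of all 32851 windows, and the ETS motif CCGGAAG, which GABP and related factors bind, in 24% and 6.91%. The 76 cytosolic ribosomal protein genes had the ETS motif in 30.4% of the 56 with an entry. These are counts of letters, not of bound sites.

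Outside the set of 7, the P14 calls were Mrpl50, Mrps25 and Mrpl49. Mrpl50 had 24.2, 6.08 and 15.3 CPM in TRAP, against 0.757, 0.516 and 1.31 CPM in EU (log2 fold change 4.14 ± 0.79, edgeR adjusted p = 0.010), the largest change of the 10. Mrps25 had 127, 112 and 87.5 CPM in TRAP, against 47.5, 46.4 and 38.2 CPM in EU. Neither gene overlapped between captures. At P10 the genes with the smallest adjusted p after Mrpl20 were Mrps26, Mrps6, Mrps15 and Mrpl36. Mrps26 had 281, 206 and 334 CPM in P10 TRAP, against 82.8, 60.1 and 84.2 CPM in P10 EU (log2 fold change 1.85 ± 0.35, edgeR adjusted p = 0.0077). Mrps15 had 163, 135 and 187 CPM, against 59.6, 35.5 and 39.5 CPM. Mrpl12, whose protein forms the stalk that engages translation factors and which also binds the mitochondrial RNA polymerase, had 410, 290 and 489 CPM in P10 TRAP, against 168, 99.9 and 117 CPM in P10 EU (log2 fold change 1.62 ± 0.37). Mrps28 was called at P10 with overlapping groups, since it had 10.2, 100 and 203 CPM in TRAP and 9.5, 10.7 and 9.33 CPM in EU. The 1 gene that was lower in P10 TRAP was Mrps18c, with 1.52, 8.44 and 2.52 CPM in TRAP, against 39.3, 14.7 and 23.3 CPM in EU (log2 fold change −2.64 ± 0.71, edgeR adjusted p = 0.029).

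Calls were spread over both subunits. At P14 6 of 51 large subunit genes and 4 of 26 small subunit genes were higher in TRAP, with median log2 fold changes of 0.52 and 0.77. At P10 13 of 51 and 9 of 26 were higher, with medians of 0.78 and 0.87. Genes specific to mitochondria had 7 of 31 calls at P14 and 9 of 31 at P10, and genes with a bacterial homologue had 3 of 46 and 13 of 46. No test compared these classes.

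Other genes of mitochondrial translation were counted from lists, and no test compared their shares with that of the 78. Among 26 assembly factors 0 were higher and 1 was lower (Mettl17) in P14 TRAP, and 4 were higher at P10 (Malsu1, Mpv17l2, Ngrn and Rbfa). Malsu1, which acts late in large subunit assembly, averaged 94 ± 25.4 CPM in P10 TRAP and 21.8 ± 4.5 CPM in P10 EU (SD, n = 3 each). Among 5 mitoribosome subunits with other names, Ptcd3 was higher at P14 and Gadd45gip1 at P10. Of 15 translation factors only Tsfm, an elongation factor, was called at P10, and none of 20 genes for mitochondrial tRNA charging was called at either age. Mitochondrially encoded mRNAs, which mitoribosomes translate, went the other way. Of 13 such genes, 7 were lower in TRAP at P14 and 5 of 12 tested at P10, with medians of −4.36 and −5.40. Of 76 cytosolic ribosomal protein genes, 5 were higher and 1 lower at P14, with a median of −0.17, and 5 were higher and 2 lower at P10, with a median of 0.15.

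Markers of other cells moved between these libraries as well. The summed level of 8 microglial genes was 545 to 1080 CPM in P14 TRAP and 249 to 455 CPM in P14 EU, with 2 of 8 called higher, and 497 to 879 CPM in P10 TRAP and 285 to 335 CPM in P10 EU. The RGC genes had 670 to 1410 CPM in P14 TRAP and 1130 to 1670 CPM in P14 EU, and none of 8 tested was called. At P10 the RGC genes had 704 to 956 CPM in TRAP and 1210 to 1330 CPM in EU, with no overlap and none of 8 called. Endothelial genes had 331 to 726 CPM in P14 TRAP and 207 to 341 CPM in P14 EU, and 360 to 629 CPM in P10 TRAP and 162 to 268 CPM in P10 EU. Oligodendrocyte genes had 7020 to 21000 CPM in P14 TRAP and 12600 to 17500 CPM in P14 EU. No microglial or oligodendrocyte marker was at 0 in either group, so these libraries are not of axons alone, and the part of other cells in the result was not tested. In tissue RNA, fewer cells of a type and less RNA per cell cannot be told apart. Transcripts of the 78 genes are short, with a median implied length of 816.7 bases against 2536 for tested coding genes, and other coding genes in their length range had median log2 fold changes of 0.16 at P14 and 0.33 at P10. With a length trend removed, 10 genes were called at P14 and 21 higher with 1 lower at P10. The P14 count fell to 1, 4 and 3 without TRAP replicates 3, 4 and 5, and to 5 and 6 without EU replicates 3 and 4, while the P10 count fell to 9, 10 and 7 without EU replicates 1, 2 and 3. Shares of all genes in these other fits are not given here.

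A further pair of comparisons shares no library with these. In SC at P14, replicates 1 and 2 gave 0 of 78 calls in either direction in edgeR, with 9 genes higher at an unadjusted p under 0.05 1 called by DESeq2 and 0 by limma, and a median log2 fold change of 0.73 (−0.01 for all genes). The count was 4 without TRAP replicate 1 and 9 without EU replicate 2. With all of these libraries kept, edgeR called 0.00633% of all 15795 genes higher and 0.114% lower. In LGN, 1 gene was called higher, and 0 lower, against 0.235% and 1.17% of all 16561 genes, with 23 genes higher at an unadjusted p under 0.05 and a median of 1.15 (−0.24 for all genes). That gene was Mrps24, with 170, 53.9 and 246 CPM in LGN TRAP, against 3.27 and 8.85 CPM in LGN EU (log2 fold change 4.68 ± 0.97, edgeR adjusted p = 0.048), and the call was lost without TRAP replicate 1 or 3 or either EU library. Other coding genes in the length range of the 78 had medians of 0.41 in SC replicates 1 and 2 and 0.57 in LGN. Of the 78 genes, 35 (44.9%) lay above 0 in all 4 comparisons, against 19.9% of the 13937 genes tested in all, which were not matched for length. Mrps27 alone lay below 0 in all 4, which is 1.28% of the 78 against 20.3% of all genes. Cytosolic ribosomal protein genes had a median of 1.15 in SC replicates 1 and 2, with 0 of 76 called. In LGN their median was 2.29, with 8 of 76 higher and 0 lower. Mrpl20 had 119 and 390 CPM in SC TRAP replicates 1 and 2, against 24 and 99 CPM in EU, and 395, 121 and 528 CPM in LGN TRAP, against 43.7 and 30.9 CPM in LGN EU. Its fold change was above 0 in each of the 4 comparisons, as were those of Mrpl17, Mrpl40, Mrps12 and Mrps33. Mrpl39 was at −0.42 in SC replicates 1 and 2 and 0.13 in LGN, and Mrps35 at 0.97 and −0.02. Mrpl50, with the largest change of the P14 calls, was at 1.30 in SC replicates 1 and 2 and −2.001 in LGN. Within EU and within TRAP, edgeR called 0 of the 78 genes and 0% of all genes between SC and LGN. In each, 1 of the 78 was at an unadjusted p under 0.05, and DESeq2 and limma called 0. With so few libraries, the lack of a call does not show that SC and LGN are alike.

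The SC libraries of each capture, which are not of axons alone, were compared with eye cells. In EU libraries, 0 of the 78 genes were higher and 6 were lower in SC than in immunopanned eye cells (7.69%), against 11% and 11.4% of all genes, which is below the share of all genes in both directions. Mrpl50 had 0.521, 0.351 and 0.941 CPM in SC EU, against 36.3, 40.2 and 42.3 CPM in immunopanned EU cells (log2 fold change −6.03 ± 0.92, edgeR adjusted p = 0.0043). Mrps33 had 10.6, 8.87 and 10.8 CPM in SC EU, against 39.5, 110 and 216 CPM in the cells (log2 fold change −3.59 ± 0.72, edgeR adjusted p = 0.011). Neither overlapped. The others were Mrpl32, Mrps18c, Mrpl49 and Mrpl1. On TPM of nuclear coding genes (limma), all genes had a median of 0.54. There 5 of the 78 (6.41%) were higher and 8 (10.3%) lower, against 22.2% and 12.1% of all genes. Without panned replicate 1, which had 62400 TPM of rod genes, 3 (3.85%) were higher and 8 (10.3%) lower, against 13.3% and 11.2%. The counts were 1, 1 and 3 lower without SC EU replicates 3, 4 and 5.

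Between SC TRAP and sorted eye cells, 19 genes (24.4%) were higher and 2 (2.56%) lower, against 22.2% and 22.4% of all genes. The higher share is near that of all genes. Mrps34 had 178, 202 and 77.2 CPM in SC TRAP, against 17, 19.5 and 21.8 CPM in eye cells (log2 fold change 2.98 ± 0.41, edgeR adjusted p = 0.0020). Mrpl49 had 83.1, 49.4 and 51.4 CPM in SC TRAP, against 235, 291 and 311 CPM in eye cells (log2 fold change −2.19 ± 0.31, edgeR adjusted p = 0.0022). Mrpl49 was also lower in SC EU than in immunopanned cells, and the eye cells hold rod RNA at 82100 to 195000 CPM of rod genes, against 4.05 to 4.46 CPM in SC TRAP. Mrpl12, Mrps12 and Mrpl20 were among the genes higher in SC TRAP, with log2 fold changes of 2.02 ± 0.41, 1.57 ± 0.30 and 1.58 ± 0.34. The count was 13 without TRAP replicate 3 and 10 without eye cell replicate 2.

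No age or chase comparison gave a call among the 78 genes in edgeR. In TRAP, P14 against P10 had a median log2 fold change of −0.70 (0.02 for all genes), with 0 genes higher and 24 lower at an unadjusted p under 0.05. DESeq2 called 11 lower and limma 0. The 0% of all genes called is from edgeR. Shares of all genes in the DESeq2 and limma fits of the age and chase comparisons are not given here. Cytosolic ribosomal protein genes had a median of −1.53 there, with 0 of 76 called. Oligodendrocyte genes had 6960 to 20500 CPM in P14 TRAP and 1740 to 3750 CPM in P10 TRAP, with none of 10 called, and their part in the result was not tested. Mrpl20 had 213, 132 and 111 CPM in P14 TRAP, against 197, 420 and 419 CPM in P10 TRAP, and the values overlapped (edgeR adjusted p = 0.27). Without P10 replicate 1, 4 of the 78 genes were lower. In EU, P14 against P10 had a median of −0.18, with 3 genes higher and 13 lower at an unadjusted p under 0.05. There were 4 lower in DESeq2 and 2 in limma, and edgeR called 0.91% and 1.12% of all genes higher and lower. Without P14 EU replicate 5, 3 of the 78 were higher and 4 lower, and the share of all genes in that fit is not given here. At 8 weeks against P14, EU libraries had a median of −0.25 with 2 and 1 genes at an unadjusted p under 0.05, 1 called higher in DESeq2, 0 in limma and 0% of all genes called. Without 8-week replicate 3, 3 of the 78 genes were higher and 19 lower (3.85% and 24.4%), against 9.49% and 8.58% of all genes, and the median was −0.80. Mrpl50 (4.65) and Mrpl38 (−2.61) had the smallest adjusted p of that comparison. The 3 libraries at 8 weeks had 4658, 1240 and 7787 summed TPM, and replicate 3 was the one with 0.905% of its counts from mitochondrially encoded genes, against 21.1% and 33.8%. After a 4-day chase from P10, the median was −0.53, with 22 genes lower at an unadjusted p under 0.05, 9 lower in DESeq2, 0 in limma, and 0.00597% of all genes called higher and 0% lower.

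The sarm1ko EU libraries came from axotomized mice after a 7-day chase, so genotype, axotomy and chase cannot be told apart. Sarm1 drives the breakdown of cut axons. Set against wild-type P14 EU libraries, 42 of the 78 genes (53.8%) were lower and 1 (1.28%) was higher, against 20.8% and 16.8% of all 17171 genes, with medians of −1.27 and 0.16 (log2). Mrpl34 had 3.95, 6.36 and 5.03 CPM in sarm1ko libraries, against 41.3, 82.4 and 39.1 CPM in wild type (a log2 difference of −3.40 ± 0.44, edgeR adjusted p = 0.0017). Mrpl53 had 4.75, 5.39 and 4.16 CPM, against 43.5, 67.3 and 25.6 CPM (a log2 difference of −3.25 ± 0.45, edgeR adjusted p = 0.0019). Mrpl4, a large subunit protein with a bacterial homologue, had 11.9, 13.2 and 17.5 CPM, against 95.6, 138 and 59.6 CPM (a log2 difference of −2.79 ± 0.39). None of these 3 genes overlapped between groups.

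Both subunits shared the direction, with 28 of 51 large subunit genes lower and 1 higher, and 14 of 26 small subunit genes lower. Mrps27, an RNA-binding pentatricopeptide repeat protein of the small subunit, had 18.7, 18 and 12.5 CPM in sarm1ko libraries, against 70.4, 58.1 and 58.2 CPM in wild type (a log2 difference of −1.92 ± 0.33, edgeR adjusted p = 0.0032). Mrps12 had 11, 12.8 and 8.86 CPM, against 55.4, 40.7 and 32.9 CPM (a log2 difference of −1.98 ± 0.37). The exception was Mrpl50, with 3.4, 3.6 and 2.62 CPM in sarm1ko libraries, against 0.534, 0.366 and 0.905 CPM in wild type (a log2 difference of 2.41 ± 0.85, edgeR adjusted p = 0.046). Of the 26 assembly factors 11 were lower and 2 higher, and of 76 cytosolic ribosomal protein genes 44 were lower and 2 higher with a median of −1.53. All 13 mitochondrially encoded genes were higher, with a median of 4.59.

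The size of this result turned on the scale. On TPM of nuclear coding genes (limma), where the median of all genes was 0.75, 22 of the 78 genes (28.2%) were lower and 12 (15.4%) higher, against 9.44% and 34.6% of all genes, and the median of the 78 was −0.24. There Mrpl34 (−1.85), Mrpl53 (−1.72), Mrpl4 (−1.74) and Mrps27 (−0.90) stayed lower, and Mrpl42 (3.24), Mrps18c (2.83) and Mrpl50 (2.28) were among those higher. With a length trend removed 36 were lower and 2 higher, against 24.1% and 13.7% of all genes. Other coding genes of like length had a median of −0.75. The count was 22 lower without sarm1ko replicate 1, 24 lower without replicate 3 and 7 lower with all 5 wild-type P14 libraries. Shares of all genes in those fits are not given here. RGC genes had 344 to 412 CPM in sarm1ko libraries and 775 to 1180 CPM in wild type, with 2 of 7 called lower and 1 marker at 0 in the sarm1ko group. Microglial genes had 95.1 to 160 CPM in sarm1ko libraries and 172 to 322 CPM in wild type, with 4 of 8 called lower. Their part in the result was not tested.

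**Figure D4:**
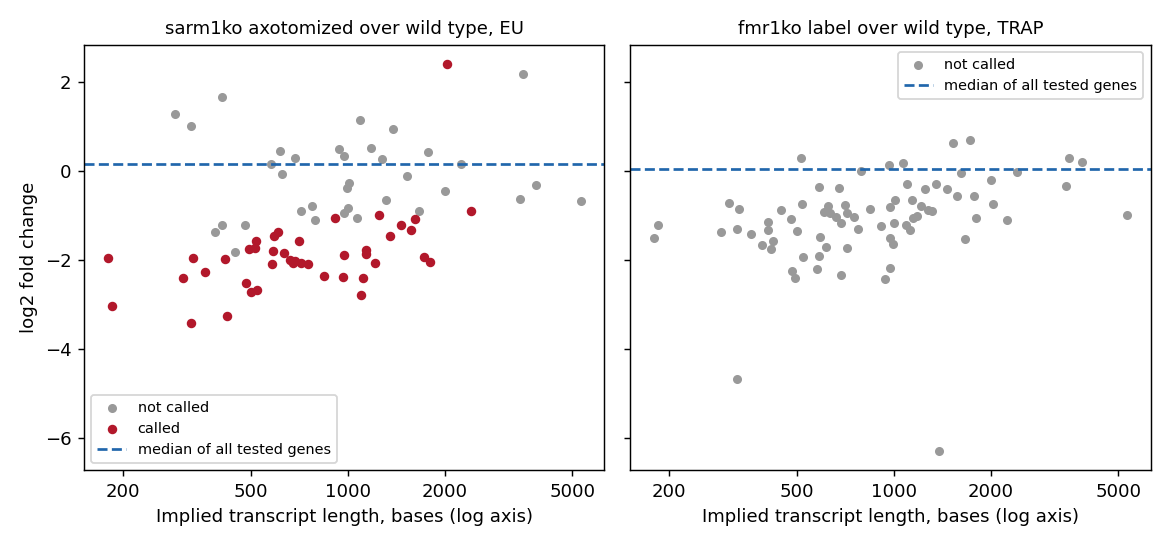
Log2 fold change of the 78 genes against implied transcript length (log axis, from counts and TPM) for axotomized sarm1ko over wild-type EU libraries (left) and for TRAP libraries labelled fmr1ko over wild type (right). Most points lie below the dashed median of all tested genes in both panels, and the lowest points tend to lie at short lengths.

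Fmr1 encodes FMRP, a protein that binds mRNAs and ribosomes. In TRAP libraries the fmr1ko label came with lower values for most of the 78 genes, but 0 were called in edgeR, as were 0% of all genes. Of the 78 genes 70 lay below 0 and 8 (10.3%) above, against 51.4% of all genes above 0. The median log2 fold change was −1.02 (0.05 for all genes), and 20 were lower at an unadjusted p under 0.05. DESeq2 called 13 lower and limma 0. Shares of all genes in the DESeq2 and limma fits of the label are not given here. Cytosolic ribosomal protein genes had a median of −0.84 in TRAP with the label, with 0 of 76 called. Without replicate 2, the library with rod RNA, 10 of the 78 (12.8%) were lower and 0 higher, against 6.8% and 6.1% of all genes, and the median was −1.07. Markers of other cells moved with the label in replicates 1 and 3 too. Microglial genes had 229 and 250 TPM there, against 548, 1150 and 1130 TPM in wild-type TRAP. SC neuron genes had 475 and 440 TPM, against 197, 211 and 324 TPM in wild type, and rod genes 50.2 and 53.6 TPM, against 3.24 to 4.22 TPM in wild type. Their part in the result was not tested. The 10 genes called without replicate 2 were Mrps18c, Mrpl13, Mrpl39, Mrpl27, Mrpl30, Mrps33, Mrpl41, Mrps31, Mrpl53 and Mrpl11. With a length trend removed and replicate 2 kept, the median was −0.14 and 0 were called. In EU libraries the label gave 0 calls in edgeR among the 78, with 13 higher and 6 lower at an unadjusted p under 0.05, 8 higher and 2 lower in DESeq2, 3 higher in limma, and a median of −0.11. Without wild-type EU replicate 5 it gave 7 higher and 6 lower, and the share of all genes in that fit is not given here. With all libraries kept, edgeR called 0.816% of all genes higher and 0.29% lower. In eye cells 67 of the 78 (85.9%) lay above 0, against 50.7% of all genes, with a median of 0.59 (0.02 for all genes). Cytosolic ribosomal protein genes had a median of 1.38 there, with 0 of 76 called. Among the 78, Mrpl54 was called higher and 0 genes lower, against 0.0528% and 0.00659% of all genes. Mrpl54 had 527, 380 and 257 CPM in eye cells with the label, against 58.5, 42.2 and 61.9 CPM in wild type (a log2 difference of 2.84 ± 0.33, edgeR adjusted p = 0.04999), and the call was lost without any 1 of the 6 libraries.

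The difference of the fmr1ko label effect between TRAP and EU was tested as an interaction. It was negative for 6 of the 78 genes (7.69%) and positive for 0, against 3.24% and 2.68% of all 18561 genes. These genes were Mrpl13, Mrps31, Mrpl42, Mrps18c, Mrps33 and Mrpl50. Mrps31, which encodes a small subunit protein found only in mitochondria and lies at chromosome 8, 22411361 to 22429665, had 0.0889, 0 and 0.227 CPM in TRAP with the label, against 9.89, 9.85 and 6.61 CPM in wild-type TRAP. In EU it had 16.1, 12.7 and 12 CPM with the label, against 8.05, 4.9 and 7.39 CPM in wild type. It was thus low in TRAP with the label, in all 3 libraries, and in no EU library (difference of log2 fold changes −7.31 ± 1.41, edgeR adjusted p = 0.023). Mrpl13, at chromosome 15, 55534094 to 55557748, had 12.8, 11.1 and 9.52 CPM in TRAP with the label, against 88.2, 53.8 and 44.1 CPM in wild-type TRAP. It had 46.6, 49.4 and 36.4 CPM in EU with the label, against 30.1, 26.7 and 33.8 CPM in wild-type EU (difference −3.03 ± 0.59, edgeR adjusted p = 0.023). Both genes were separated in opposite directions in the 2 captures.

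The other 4 genes had values that did not overlap between label and wild type in EU, in TRAP or in both. Within either capture alone, 0 of the 78 genes were called for the label in edgeR. Mrps18c had 0.178, 1.1 and 0.202 CPM in TRAP with the label, against 21.2, 9.26 and 7.95 CPM in wild-type TRAP, and 7.73, 45 and 7.95 CPM in EU with the label, against 2.35, 0.647 and 6.66 CPM in wild-type EU. Mrpl42 had 68.1, 69.3 and 86.5 CPM in EU with the label, against 7.28, 1.75 and 15.9 CPM in wild-type EU, and 13, 14.9 and 6.9 CPM in TRAP with the label, against 40.4, 27.8 and 20.8 CPM in wild-type TRAP. Mrpl50 had 10, 17.9 and 4.35 CPM in EU with the label, against 0.728, 0.508 and 1.29 CPM in wild-type EU, and its TRAP groups overlapped. Mrps33 did not overlap between label and wild type in either capture. Without TRAP replicate 2 the 6 genes were again called among 11 (14.1%, against 7.17% of all genes), with Mrps31 at −6.61 and Mrpl13 at −2.88. The count was 5 and 8 without TRAP replicates 1 and 3 of the label, 4 without wild-type EU replicate 5, and 0 without any 1 of the remaining 8 libraries. The mitochondrially encoded genes were higher in EU with the label (11 of 13, median 5.33), whose share of counts was 11.3%, 40% and 9.58%, against 1.04%, 0.407% and 1.76% in wild-type EU. Astrocyte genes had 2080 to 3840 CPM in EU with the label and 814 to 1710 CPM in wild-type EU, with none called, and their part was not tested.

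**Figure D5:**
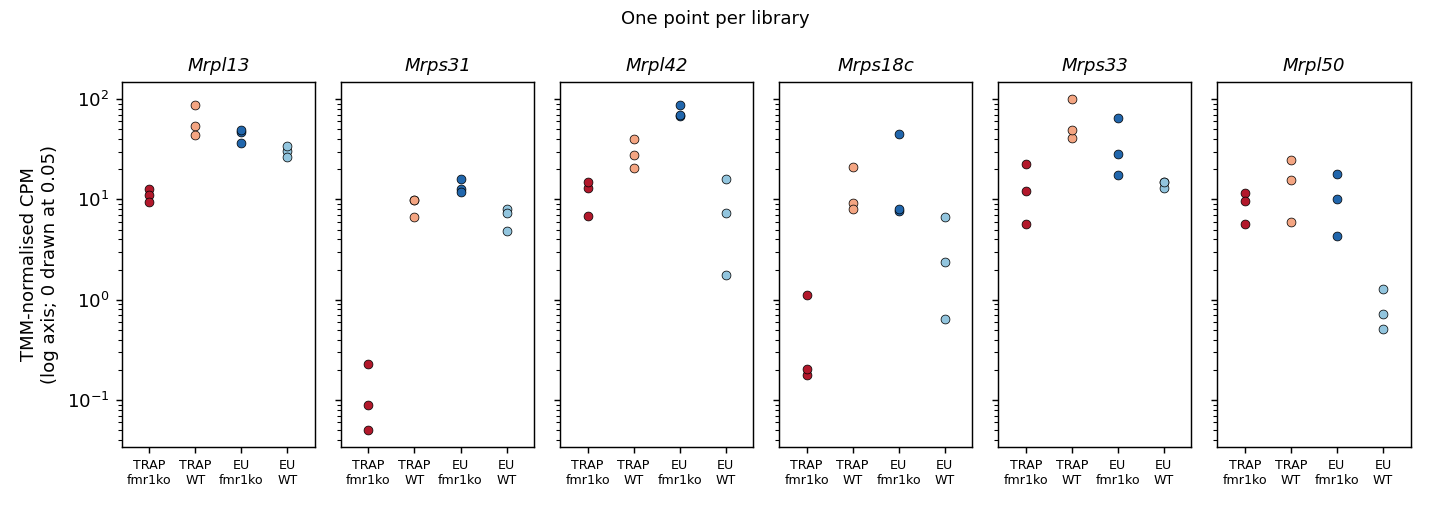
TMM-normalised CPM in each library (points, log axis, 0 drawn at 0.05) of the 6 genes whose fmr1ko label effect differed between TRAP and EU. In each panel TRAP with the label, wild-type TRAP, EU with the label and wild-type EU follow from left to right, and Mrps31 lies below 0.3 CPM in all 3 TRAP libraries with the label.

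The Mrps18 genes are paralogues whose proteins take 3 different places, with Mrps18c and Mrps18b in the small subunit and Mrps18a in the large one. Their levels differed, with medians over the 48 libraries of 110.4 TPM for Mrps18a, 74.9 TPM for Mrps18b and 21.5 TPM for Mrps18c. Mrps18a had 63.5, 75.2 and 51.5 CPM in P14 TRAP, against 85.9, 79.6 and 44.4 CPM in P14 EU, and Mrps18b had 77.9, 46.5 and 43.2 CPM, against 84.7, 93.6 and 41.4 CPM. Both overlapped, with log2 fold changes of −0.14 ± 0.37 and −0.39 ± 0.42. Mrps18c had 20.6, 9.42 and 7.75 CPM in P14 TRAP, against 2.45, 0.657 and 6.79 CPM in P14 EU, with no overlap but an edgeR adjusted p of 0.16. In sarm1ko libraries Mrps18a and Mrps18b were lower (log2 fold changes −1.83 ± 0.38 and −1.56 ± 0.45), while Mrps18c had 4.27, 5.08 and 4.59 CPM, against 1.73, 0.466 and 4.68 CPM in wild type, and was not called. Mrps18c had a higher TRAP than EU value at P14 and a lower one at P10, and that difference was not called in the test between the ages.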

How the data were processed

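Gene-level estimated counts and TPM were deposited by the authors for each library, with Ensembl gene IDs, and 16.7% of the nonzero estimated counts are not whole. Quantification named Salmon and the mm10 build, per the submitters' processing notes. The sources used here do not give the settings used or how duplicated and multimapping reads were treated.

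Symbols, positions and overlaps come from GENCODE M21 on GRCm38. Estimated counts were rounded to whole numbers and tested with edgeR 4.0.16 in R 4.3.3 (filterByExpr, TMM scaling, quasi-likelihood F test, two-sided), with 1 fit for each of 16 comparisons of groups and 2 interactions, and p-values adjusted by the Benjamini-Hochberg method over all tested genes. Levels within a comparison are TMM-normalised CPM, scaled anew in each comparison, so values of a library are not comparable between comparisons (Mrps12 in wild-type EU replicate 3 was at 78.6 CPM beside TRAP and 55.4 CPM beside sarm1ko libraries). TPM is used between genes. Alternatives were RLE size factors, no filter on low counts, DESeq2 1.42.0, limma 3.58.1 on log2(TPM + 1) of genes with a mean of at least 1 on that scale, a length trend removed by lowess with a span of 0.3, all 5 wild-type P14 libraries, FACS cells as eye cells, a replicate block and leaving out each library. A limma fit on TPM rescaled to nuclear coding genes was chosen after seeing the data. Shares of all genes are from the edgeR fit with all libraries of a comparison, unless another setting is named with them. Other counts under alternatives have no share of all genes from the same fit beside them. Implied length is the ratio of count to TPM, scaled to bases, over libraries with at least 20 counts. The fits were checked on simulated counts.

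Genes were named by rule: in each comparison the called genes, at most the 12 with the smallest adjusted p, those called in TRAP at both ages, the 5 highest and 5 lowest by median TPM, the Mrps18 paralogues, and at most 4 called genes of each pathway list. The genes and lists were chosen with earlier results of these data known. Genes named from fits without a library, the nuclear coding scale or for a single value below 0 were chosen after their values were seen. The median library total was 22212787 estimated counts. In the 13 comparisons whose title codes share a final number, replicate numbers were not taken to pair libraries, since in none of them did every pair of same-numbered libraries correlate above 0.1. Pairing was not checked in the other 5, which include both comparisons of SC with LGN.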

Additional observations from a re-analysis of the deposited data

Results flagged for a closer look

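Of 34 groups of 4 or 5 library values tested, 7 held a value far from the rest, where chance gives about 1 in 20 for independent values. These groups reuse the same SC libraries at P14 and mix series of title codes. The count can therefore not be set against that rate. In SC TRAP at P14, Mrpl17 was at 1310 TPM in replicate 2, against 181 to 339.8 TPM in the other 4 libraries. Mrpl40 was at 67.6 TPM in SC TRAP replicate 1, against 105.8 to 115 TPM in the others. In SC EU at P14, replicate 1 held the highest value for Mrpl1 (9.01 TPM), Mrps30 (29.8 TPM), Mrps31 (29.1 TPM) and Mrpl39 (40.5 TPM), and this library was the shallowest of the series with 2558141 estimated counts. Replicate 2 held the highest value for Mrps35 (95.8 TPM). None of these libraries is in the comparisons of replicates 3 to 5.

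The effect of the fmr1ko label differed between TRAP and EU for 6 genes in the interaction test of edgeR. The differences of log2 fold changes were −7.332 for Mrps18c, −7.307 for Mrps31, −4.519 for Mrpl42, −4.459 for Mrpl50, −3.624 for Mrps33 and −3.026 for Mrpl13. All 6 were also called without replicate 2 of the TRAP libraries with the label, which holds rod RNA. The calls did not hold under most other settings. Leaving out single libraries in turn gave 0 to 11 called genes for this interaction. Of 20 alternative settings, the result held in 11 for Mrps18c, 11 for Mrps31 and 9 for Mrpl42. It held in 7 for Mrpl13, 6 for Mrps33 and 4 for Mrpl50.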

How the results depend on the processing

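Counts below are genes of the 78 that were called in either direction, and reasons for the changes were not tested. They are given without the share of all genes in the same fit. With DESeq2 there were 17 calls for TRAP against EU at P14 in SC, 1 in replicates 1 and 2, 16 in LGN, 19 for SC EU against immunopanned cells, 34 for SC TRAP against eye cells, 4 for EU P14 against P10, 11 for TRAP P14 against P10, 1 for 8 weeks, 9 for the P10 chase, 10, 13 and 15 for the fmr1ko label in EU, TRAP and eye cells, 1 for the TRAP effect at P14 against P10 and 13 for the label interaction. With limma on TPM there were 17 at P14 and 14 at P10 for TRAP against EU, 4 in LGN, 13 against immunopanned cells, 37 against sorted eye cells, 2 for EU P14 against P10, 3 and 2 for the label in EU and eye cells and 3 for the interaction. With no filter there were 1 in replicates 1 and 2, 14 in LGN, 3 and 11 for P14 against P10 in EU and TRAP, 7 for the P10 chase, 7 and 3 for the label in EU and eye cells and 3 for the TRAP effect between ages. On TPM of nuclear coding genes there were 14 at P10, 1 in replicates 1 and 2, 13 against immunopanned cells, 2 for EU P14 against P10, and 1 and 2 for the label in EU and eye cells. With the length trend removed there were 2 in replicates 1 and 2, 7 in LGN, 12 against immunopanned cells, 2 and 0 for the label in EU and eye cells and 2 for the interaction. With RLE size factors LGN had 3 and the label in eye cells 0. With all 5 wild-type P14 libraries the counts were 9 for TRAP against EU (0 in replicates 1 and 2 alone), 7 for sarm1ko, 2 for the label in TRAP and 3 for the interaction. With FACS cells in place of immunopanned cells there were 12.

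Mrps35 at P10 was at −0.044 on TPM of nuclear coding genes, and Mrps18c was at 0.454 in SC EU against FACS cells, both past 0 from their edgeR values. With the replicate number as a block, the counts were 10 for TRAP against EU at P10, 11 against sorted eye cells, 3 for EU P14 against P10, and 0 for the label in eye cells and the interaction. In the 13 comparisons checked, replicate numbers did not meet the rule for pairing, which cannot show that pairing is absent. For TRAP against EU at P14 the same-numbered pairs correlated at −0.028, 0.201 and 0.181. The block moved no other count by over 1.5 times.

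Leaving out 1 library at a time gave 1 to 13 calls at P14 and 7 to 25 at P10 for TRAP against EU, 0 to 9 in replicates 1 and 2, 0 to 1 in LGN, 1 to 11 against immunopanned cells, 10 to 26 against sorted eye cells, 0 to 7 and 0 to 4 for P14 against P10 in EU and TRAP, 0 to 22 for 8 weeks, 22 to 57 for sarm1ko, 0 to 13 and 0 to 10 for the label in EU and TRAP, 0 to 1 for the TRAP effect between ages and 0 to 11 for the label interaction. It gave 0 to 0 for the P10 chase, the label in eye cells and SC against LGN in either capture. With 2 libraries in a group, leaving 1 out assumes that the lone library varies like the other group. Groups of 2 or 3 libraries limit what each test can call.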
